A study of Rattus norvegicus with 16 samples.

Results

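The results concern the transcripts that lay on the same side of untransduced neurons in every lentivirus group of the experiment, whichever insert the virus carried. Of 22909 genes measured in primary rat hippocampal neurons, 9238 met this rule. All 3 virus group means lay above the untransduced mean for 4773 genes (20.8% of those tested) and below it for 4465 (19.5%), and the remaining 13671 genes had virus means on both sides. Because the 3 comparisons share the same untransduced samples, and the rule asks only for the side of a mean, this count is a description and supports nothing. Within it, 814 genes (3.55% of those tested) also differed between the average of the virus groups and the untransduced group at an adjusted p below 0.05, and these are the genes described in most detail.

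The series studied PRR7, a transmembrane protein of synapses, and the ubiquitination of the transcription factor c-Jun. Hippocampal neurons of Sprague-Dawley rats were taken at embryonic day 18 to 19, from embryos of either sex, and grown as primary cultures; the study counted 4 biological replicates in each of 4 groups. The group labelled "Not transduced" received no virus. The group labelled "Non-targeting shRNA" received a pTRIP lentivirus with a short hairpin RNA (shRNA) that has no stated target, and the group labelled "Knock-down" a pTRIP lentivirus with an shRNA against the coding region of Prr7. The group labelled "Overexpression of Prr7" received the full-length coding sequence in FUGW, a lentiviral vector of another design, so that no group received the vector backbone alone. All groups shared the strain, the age and the culture protocol. Virus dose, the share of transduced cells, and the time from transduction to RNA extraction are not given in the sources used here. Nothing in the labels shows that the 4 samples of a group came from separate dissections, and p-values measure the spread between these samples.

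RNA was labelled with Cy3 or Cy5 and hybridised to 8 Agilent rat arrays on 2 slides. Each array carried 2 samples of a single group, replicates 1 and 2 on the first array of the group and replicates 3 and 4 on the second. One slide held the untransduced and overexpression arrays. The nontargeting and knockdown arrays were on the other, which held no untransduced sample. Only overexpression against not transduced is therefore a comparison within a slide. For the nontargeting and knockdown groups, the slide with its scan day and the virus cannot be told apart. In each sample 49.2% to 69.6% of probes were well above background, with median net signals of 73.2 to 150 intensity units. No probe was named Prr7, so the knockdown and the overexpression could not be checked on their own transcript. Of 14 pan-neuronal markers measured, 14 were well above background in every untransduced sample, as were 17 of 18 astrocyte markers and 5 of 10 microglial markers.

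Lentiviral vectors enter a cell through an envelope protein, reverse-transcribe their RNA and insert the DNA copy into the genome of dividing and non-dividing cells, which is why they are used in neurons. A cell can sense the incoming nucleic acid through receptors such as RIG-I, cGAS and the Toll-like receptors, which switch on interferon-stimulated genes. The integrated stress response and the unfolded protein response are a further layer, in which kinases slow translation and the factors ATF4, ATF6 and CHOP (the product of Ddit3) switch on genes of amino acid supply and protein folding. Neurons and glia carry these pathways too, and hippocampal cultures hold excitatory neurons, a minority of inhibitory neurons, and glia.

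The average of the 3 virus groups, weighted equally, differed from the untransduced group for 1091 genes, 455 higher (1.99% of those tested) and 636 lower (2.78%). The split by direction depends on the alignment of the arrays. With the deposited, median-centred values 487 genes were higher and 442 lower, and with no alignment between arrays 5 were higher and 62 lower. Of the 1091 genes, 814 (74.6%) had all 3 virus means on the same side. The other 277 were called although a virus group lay on the opposite side, 129 of them higher and 148 lower on average. The rule has no minimum size. Just inside it, C1h9orf85 had log2 differences of -1.09 in nontargeting, -0.31 in knockdown and -5e-04 in overexpression. Just outside it, Dmd, which encodes dystrophin, had differences of 0.51 in knockdown and 0.64 in nontargeting but -8e-04 in overexpression.

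The 3 viruses contributed unequally. Taken singly, nontargeting differed from not transduced for 5150 genes (22.5% of those tested) and knockdown for 2318 (10.1%), both across slides. Overexpression, the comparison within a slide, differed for 1 gene (0.00437%), and 892 genes (3.89%) passed an unadjusted p of 0.05 there. Where no gene differs, a share of about 0.05 would pass, so the 892 are not more than that. Among the 814 genes, overexpression had the smallest of the 3 differences for 700 and the largest for 7, whereas nontargeting had the largest for 553. For the 326 that were higher, the median difference was 0.79 in nontargeting, 0.63 in knockdown and 0.21 in overexpression, on the log2 scale. For the 488 that were lower, the medians were -0.95, -0.59 and -0.17. The virus groups themselves differed for 684 of the 814 (84%), against 7026 of all genes tested (30.7%), by the F test among the 3 virus groups. Since the average that chose the 814 genes uses these values, the medians describe the selection and are not a test of it.

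Few genes separated all virus samples from all untransduced samples. Every virus value lay on 1 side of every untransduced value for 240 genes (1.05% of those tested), 133 of them lower. Of the 814 genes, 129 did so, 64 higher and 65 lower. At least 1.5-fold in each of the 3 groups was reached by 28 of the 814, 22 higher and 6 lower, and at least 2-fold in each by 1. The virus groups differed among themselves for 3 of these 28. The genes named next are those with a symbol that lead in each direction by the smallest of their 3 differences, so the size of that smallest difference is how they were chosen.

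Eftud2, a GTPase of the spliceosome's U5 particle, was the 1 gene called in each of the 3 virus comparisons. Its log2 intensity in the untransduced samples was 11.17, 11.31 and 11.11, with no value for replicate 4. It was 12.98, 12.85, 12.70 and 12.82 in nontargeting, 13.17, 12.89, 13.10 and 13.03 in knockdown, and 12.86 and 12.92 in the overexpression replicates 1 and 2, with no value for replicates 3 and 4. All 10 virus values thus lay above all 3 untransduced values, and the missing ones were spots that the scanner software marked as outliers. The rise was 1.74 ± 0.12 (SE) on average (3.35-fold, adjusted p = 7.0e-05), and 1.71 ± 0.17 in overexpression alone (adjusted p = 0.00804). Both overexpression values came from 1 array, so this call has no second array behind it in that group. In overexpression the adjusted p was 0.635 when only the overexpression and untransduced samples were fitted, and 0.957 with no normalization between arrays. It was 0.158 without untransduced replicate 3 and 0.0826 without the knockdown replicates 3 and 4. Without overexpression replicate 2 the difference was 1.67, and with each array as 1 value it was 1.71. Each of these 2 runs left 1 overexpression value, and the call was lost in both.

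The rise of Eftud2 was seen by 1 of the gene's 2 probes. The brightest probe of a gene was the one tested. Without virus the tested Eftud2 probe was the dimmer, with a mean log2 intensity of 11.20 against 12.37. It was the brighter in each virus group, so its choice depended on the samples in which it was high. The call is therefore not independent of the probe choice, and it cannot be read as a rise of the gene as a whole. The tested probe lies at chr10:92012348-92012407 of the rat build rn4, by the array's annotation. A second probe at chr10:92012868-92013090, whose target spans a splice junction by its length on the genome, gave 12.44, 12.33, 12.53 and 12.19 in the untransduced samples and 12.23, 12.25, 12.26 and 12.59 in overexpression. Its average virus difference was 0.07 (adjusted p = 0.815), and its groups overlapped. Averaging both probes took the overexpression difference to 0.58 with an adjusted p of 1.

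**Figure D1:**
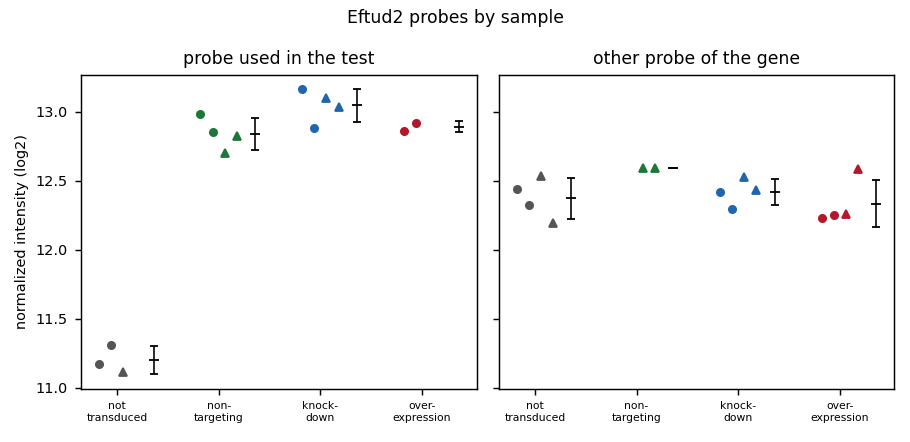
Normalized log2 intensity of both Eftud2 probes in each sample, by group, with the mean and SD beside the points (circles, replicates 1 and 2 on the first array; triangles, replicates 3 and 4 on the second). The 10 virus values of the tested probe lie above its 3 untransduced values, and the other probe lies between 12.19 and 12.59 in every measured sample.

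Nampt, the rate-limiting enzyme of NAD salvage, had a single kept probe and values for all 16 samples. Its log2 intensity was 8.72, 8.93, 8.47 and 9.01 without virus. With virus it was 9.75, 9.88, 9.91 and 9.91 in nontargeting, 9.52, 9.69, 9.61 and 9.60 in knockdown, and 9.59, 9.91, 9.24 and 9.65 in overexpression. The lowest virus value thus exceeded the highest untransduced value. The rise was 0.91 ± 0.13 (1.87-fold, adjusted p = 0.00165), and within the slide, in overexpression, the difference was 0.82 ± 0.16 (unadjusted p = 1.1e-04, adjusted p = 0.322).

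Naa20, the catalytic subunit of the N-terminal acetyltransferase NatB, showed the same order of groups. Its values were 9.82, 10.29, 9.74 and 10.10 without virus, 10.91, 10.90, 11.10 and 11.02 in nontargeting, 10.82, 10.94, 10.65 and 10.82 in knockdown, and 10.54, 10.53, 10.66 and 10.69 in overexpression. Every virus value lay above every untransduced value, while the virus groups overlapped one another. Overexpression had the lowest mean of the virus groups. The rise was 0.81 ± 0.13 (adjusted p = 0.00257), with a difference of 0.62 in overexpression (adjusted p = 0.789). The calls of Nampt and Naa20 on the virus average held in each of the 24 runs that left out a sample or an array. With no normalization between arrays both were lost (adjusted p = 0.109 for Nampt and 0.248 for Naa20).

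Gnl3, which encodes the nucleolar GTPase nucleostemin, gave 10.95, 11.67, 12.06 and 12.49 without virus, 12.51, 12.76, 13.02 and 13.21 in nontargeting, 12.56, 12.74, 12.54 and 12.78 in knockdown and 12.83, 13.15, 12.18 and 12.56 in overexpression. The untransduced samples spread over the widest range, and their highest value exceeded the lowest overexpression value. The rise of 0.95 ± 0.22 (adjusted p = 0.0221) was 0.46 (adjusted p = 0.253) without the first untransduced array, and its call was also lost without either knockdown array or the first overexpression array. Rpsa encodes a ribosomal protein and has many near-identical genomic copies that a probe may not tell apart. It gave 14.76 and 14.65 in the only 2 untransduced samples measured, both on 1 array, and 15.09 to 15.80 in the 12 virus samples. Its rise of 0.80 ± 0.18 (adjusted p = 0.0259) lost its call without untransduced replicate 3 or 4 and without either knockdown array.

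The other 5 named rises were Ralgdsl1, a guanine nucleotide exchange factor of Ral GTPases (1.03 ± 0.17), Tspan15, a tetraspanin that pairs with the protease ADAM10 (0.99 ± 0.15), Lzts2, a leucine zipper protein (0.96 ± 0.14), Gpank1, a protein with ankyrin repeats (0.89 ± 0.15), and Numa1, which organises the mitotic spindle (0.73 ± 0.18). The call of Numa1 was lost in 9 of 24 runs that left out a sample or an array, among them those without untransduced replicate 1, 3 or 4. With Eftud2 these make 6 genes with a further kept probe, and 0 of their 6 other probes passed the test. The other probes gave average virus differences of 0.11 for Ralgdsl1, 0.12 for Tspan15, -0.07 for Lzts2, -0.03 for Gpank1 and 0.23 for Numa1. Ralgdsl1 was measured in 2 of 4 overexpression samples and Gpank1 in 2 of 4 untransduced samples, in each case on a single array of that group. Tspan15 was the 1 named rise whose virus groups differed, with 1.47 in nontargeting against 0.82 in knockdown and 0.68 in overexpression. Of the 10 named rises, 9 passed the test in knockdown, 10 in nontargeting and 1 in overexpression, and every virus value lay above every untransduced value for 8.

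**Figure D2:**
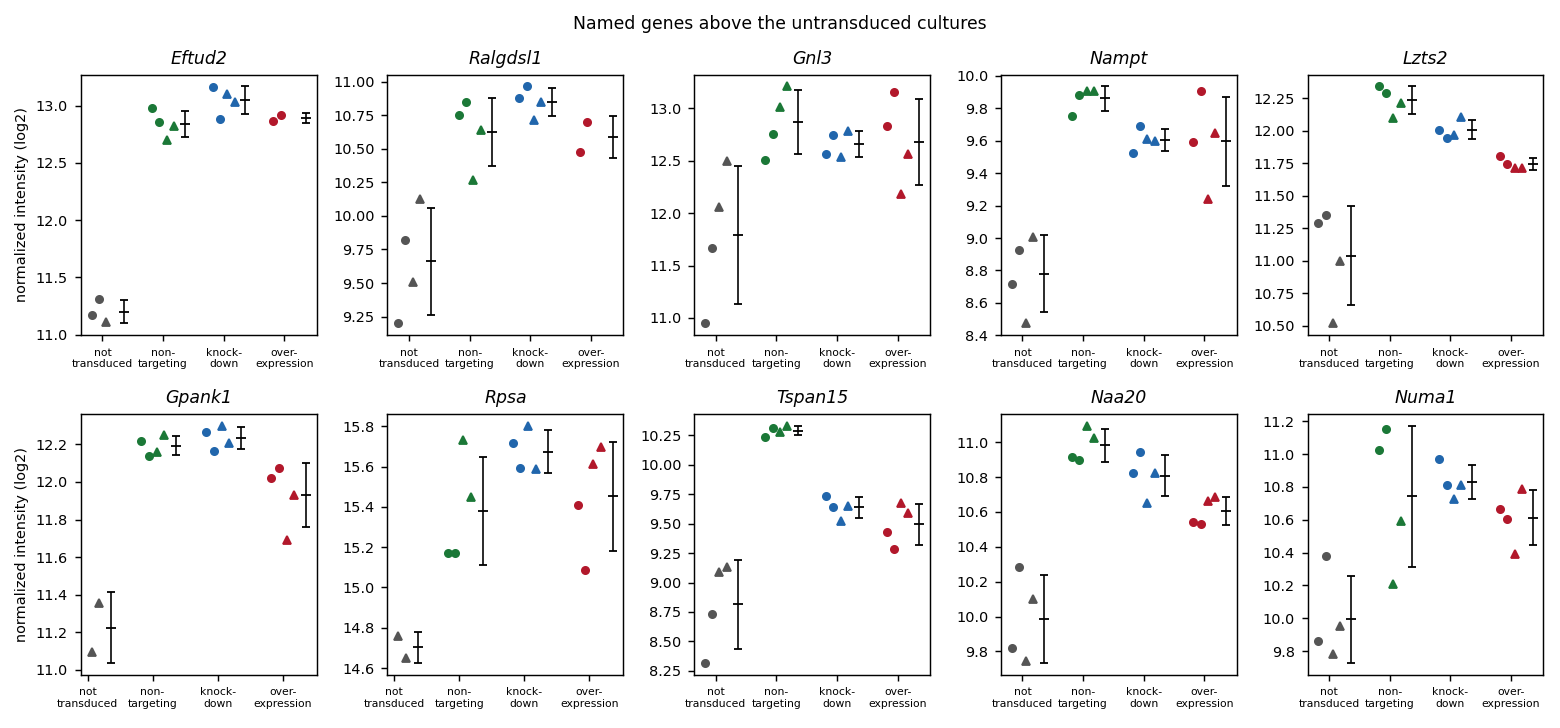
Normalized log2 intensity of the 10 named rises in each sample, by group, with the mean and SD beside the points (circles, first array; triangles, second array; vertical axes differ). Overexpression, on the same slide as the untransduced samples, lies above the untransduced mean in each gene, and untransduced and virus values overlap for Gnl3 and Numa1.

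Other probes were also compared across the 814 genes. Of these, 174 had another kept probe, 221 other probes in all. On the same test of the virus average, 57 of the 221 passed in the same direction, 0 in the opposite direction, and 164 did not pass, where 4.76% of all genes tested passed in either direction. The other probes had the same sign in 182 of 221 cases. Their part in the counts above was not tested.

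Among the genes lower with virus, those of inhibitory neurons stood in the named group. Slc32a1, the transporter that loads GABA and glycine into synaptic vesicles, gave 10.99, 10.87, 11.63 and 11.64 without virus. It gave 9.58, 9.13, 9.38 and 8.87 in nontargeting, 10.19, 10.16, 10.53 and 10.49 in knockdown, and 10.84, 10.701, 11.02 and 10.77 in overexpression. Nontargeting and knockdown lay wholly below the untransduced samples, and overexpression overlapped them. Slc32a1 fell by 1.14 ± 0.17 (adjusted p = 0.0022), and the virus groups differed among themselves. Without nontargeting in the average its adjusted p was 0.0872.

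Pvalb encodes parvalbumin, the calcium buffer of fast-spiking interneurons. It gave 7.95, 7.96, 8.30 and 8.23 without virus, 7.40, 7.45, 7.43 and 7.34 in knockdown, and 7.52, 7.54, 7.76 and 7.69 in overexpression, with no overlap. In nontargeting none of the 4 samples was well above background, so its level there was not measured reliably (measured mean 6.96). From a mean of 8.11 to a floor of 7.09 the fall was 2.03-fold. The floor takes, in each sample, the higher of the probe's own value and the lowest value among probes well above background. It is not a strict limit, since knockdown replicate 3 gave 7.43 on this probe and was not well above background. The fall of Pvalb on the virus average was 0.78 ± 0.10 on the log2 scale (adjusted p = 9.9e-04), and the difference in overexpression was -0.48 (unadjusted p = 0.00128, adjusted p = 0.789). In knockdown 2 of 4 samples were well above background, so the average rests in large part on values near background.

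Cort, the somatostatin-related peptide cortistatin of interneurons, gave 11.04, 10.93, 10.34 and 10.67 without virus. It gave 10.31, 10.23, 10.25 and 9.86 in nontargeting, 9.64, 9.67, 10.15 and 10.07 in knockdown, and 9.70, 9.58, 9.69 and 10.15 in overexpression. All 12 virus values lay below the 4 untransduced ones. Here overexpression had the largest difference, -0.96 ± 0.24 (unadjusted p = 9.8e-04, adjusted p = 0.775), and the fall on average was 0.80 ± 0.19 (adjusted p = 0.0273). The call was lost without untransduced replicate 1, 2 or 4, singly, and without the first array of the untransduced, knockdown or overexpression group.

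Postn, periostin, a matrix protein of fibroblasts, was nearly equal in the 3 virus groups. Its values were 8.77, 8.43, 8.74 and 8.91 without virus, 8.02, 7.98, 8.41 and 7.94 in nontargeting, 8.08, 8.22, 8.01 and 7.79 in knockdown, and 8.01, 8.09, 8.06 and 7.99 in overexpression. All virus values lay below all untransduced values, and the virus groups overlapped one another. The differences were -0.63 in nontargeting, -0.69 in knockdown and -0.68 in overexpression, and the fall on average was 0.66 ± 0.15 (adjusted p = 0.02). The call was lost without the second array of the untransduced, knockdown or overexpression group.

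Fndc3c1, a fibronectin type III domain protein, gave 8.37 to 8.74 without virus and 7.95 to 8.21 in overexpression, with lower values in knockdown (7.49 to 7.77) and nontargeting (7.04 to 7.31). It was well above background in 1 of 4 nontargeting samples, so that the nontargeting level, and with it the fall of 0.94 ± 0.12 on average (adjusted p = 9.2e-04), rests on values near background. In knockdown, where 4 of 4 samples were well above background, it fell by 0.92 (adjusted p = 0.00108). Inpp5d, the phosphatase SHIP1 of blood cells and microglia, gave 9.46 to 9.99 without virus and 8.81 to 9.32 with it. The fall of Inpp5d was 0.65 ± 0.15 (adjusted p = 0.0214) on the tested probe, whereas its 2 other probes differed by 0.19 and 0.08, in the opposite direction, and neither passed. Its call was lost without the first untransduced or the first knockdown array.

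For the other 3 named falls the first untransduced array lay apart. Bach1, a repressor of haem oxygenase, averaged 8.58 on that array and 7.55 on the second, against 7.09 to 7.31 in the virus samples. Slc6a21, a member of a neurotransmitter transporter family, averaged 9.16 and 7.88, against 6.93 to 8.01. Hspa9, the mitochondrial chaperone mortalin, averaged 9.19 and 8.62, against 7.72 to 8.50. The calls of these genes were lost in 16 of 24 runs that left out a sample or an array for Bach1, 18 for Slc6a21 and 9 for Hspa9, among them runs that left out only 1 virus sample. Without the first untransduced array the differences were -0.33 for Bach1 (adjusted p = 0.138), -0.53 for Slc6a21 (adjusted p = 0.328) and -0.52 for Hspa9 (adjusted p = 0.123). Of the 9 named falls, 6 passed the test in knockdown, 7 in nontargeting and 0 in overexpression.

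**Figure D3:**
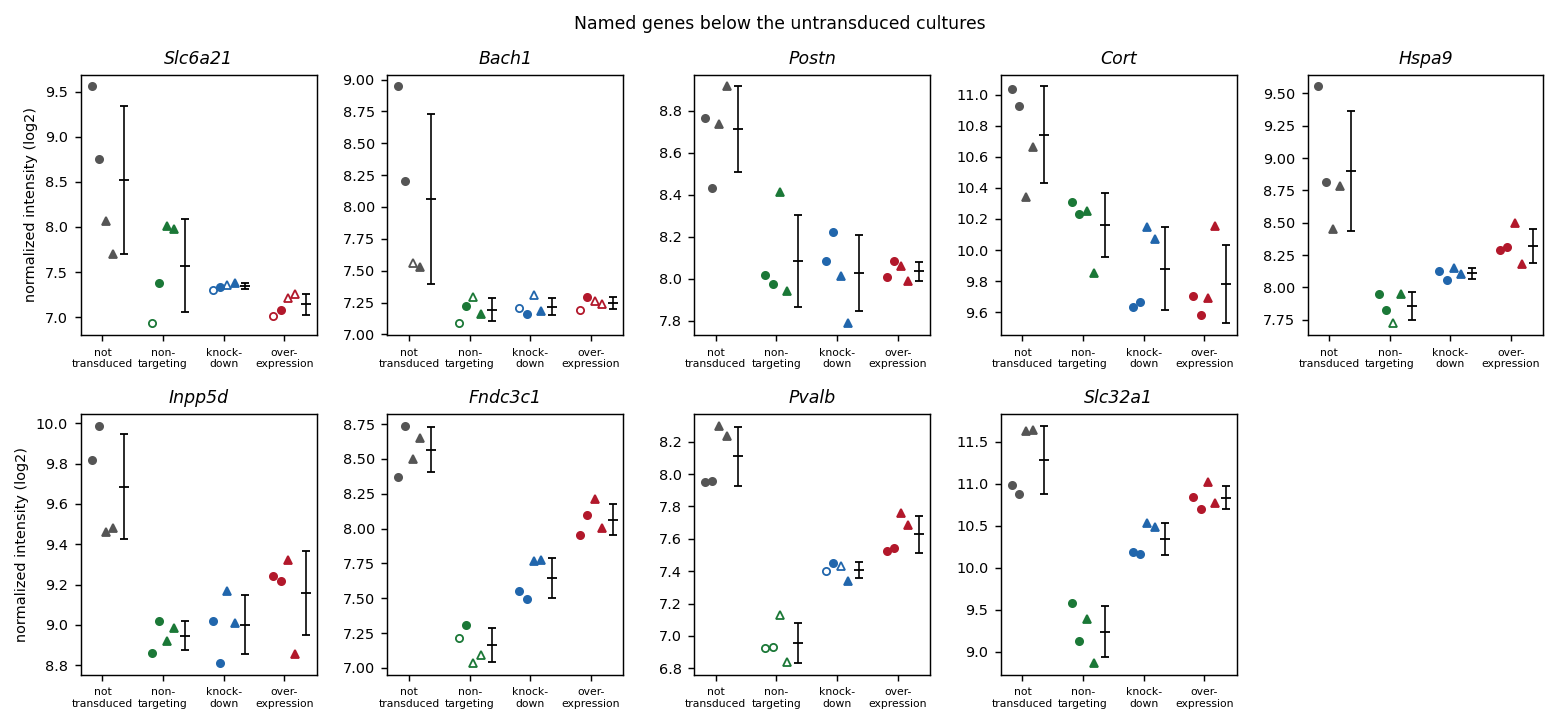
Normalized log2 intensity of the 9 named falls in each sample, by group, with the mean and SD beside the points (circles, first array; triangles, second array; open symbols, not well above background; vertical axes differ). The overexpression samples lie close to the untransduced ones for Slc32a1, whereas for Postn and Cort all virus groups lie at a like level.

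Among genes of the integrated stress and unfolded protein responses, of 25 members measured, 8 fell and 0 rose on the virus average, where 2.78% of all genes were called lower. The 3 virus means lay below the untransduced mean for 14 members and above it for 0. The list's median difference was -0.46, against 0.006 over all genes tested. It was -0.77 in knockdown and -0.42 in nontargeting, both on the other slide, and -0.11 in overexpression. Within the slide, in overexpression, 21 of 25 members lay below the untransduced mean, as did 52.9% of all genes, and 0 passed the test, also at an unadjusted p of 0.05. The number that fell was 3 without the first untransduced array, 4 without the second, 4 without untransduced replicate 2 or 3, and 3 when the knockdown or the nontargeting group was left out of the average. The list's median stayed between -0.64 and -0.27 under all alternatives.

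Ddit3, the pro-apoptotic factor CHOP, led the list. Its log2 intensity was 12.69, 12.83, 12.95 and 12.73 without virus, 11.06, 10.82, 11.09 and 10.93 in nontargeting, 10.91, 10.51, 10.98 and 10.82 in knockdown, and 12.75, 12.53, 12.81 and 12.24 in overexpression. The 2 shRNA groups lay wholly below the other 2 groups, which overlapped. Ddit3 fell by 1.35 on average (adjusted p = 1.1e-04), by 2.00 in knockdown and 1.83 in nontargeting, and its difference in overexpression was -0.22 (unadjusted p = 0.191).

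Trib3, a pseudokinase that CHOP and ATF4 induce, gave 10.69 to 11.24 without virus, 9.62 to 10.01 in nontargeting, 8.85 to 9.38 in knockdown and 10.62 to 10.95 in overexpression. It fell by 1.12 on average (adjusted p = 0.00101). Atf5, a related stress factor, fell by 1.19 (adjusted p = 0.00492) and Shmt2, a mitochondrial enzyme of serine and one-carbon metabolism, by 1.00 (adjusted p = 0.00528). In overexpression the differences of Trib3, Atf5 and Shmt2 were -0.20, -0.28 and -0.21. The virus groups differed for each of these 4 genes. Atf4 itself, the central factor of the integrated stress response, had a difference of -0.29 (adjusted p = 0.155).

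The promoters of Ddit3 and Trib3, which fell, and of Chac1, which did not pass the test, are shown because ATF4 acts through a composite element written TGATGNAA (or TTNCATCA on the other strand). RefSeq sequences of build GRCr8 were matched for 22 of the 25 members and searched on both strands over the 250 bases before the gene start. Of the 22, 3 (Chac1, Herpud1 and Trib3) held the letters, or 13.6%, against 3.4% of all 33469 promoters. The shares are of unlike units, since a member counted if any of its promoters matched and the 3.4% is per promoter. The sequences run 5′ to 3′ on the gene's strand and end at the base before the start, with a match in capitals. Ddit3 lies on the plus strand at chr7:65001445-65001694, Trib3 on the minus strand at chr3:161275534-161275783, and Chac1 on the plus strand at chr3:126795881-126796130.
Ddit3: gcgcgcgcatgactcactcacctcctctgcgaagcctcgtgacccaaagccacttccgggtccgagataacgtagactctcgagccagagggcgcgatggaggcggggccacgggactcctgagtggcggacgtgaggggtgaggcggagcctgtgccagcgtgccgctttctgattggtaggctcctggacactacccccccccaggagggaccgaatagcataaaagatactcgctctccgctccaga
Trib3: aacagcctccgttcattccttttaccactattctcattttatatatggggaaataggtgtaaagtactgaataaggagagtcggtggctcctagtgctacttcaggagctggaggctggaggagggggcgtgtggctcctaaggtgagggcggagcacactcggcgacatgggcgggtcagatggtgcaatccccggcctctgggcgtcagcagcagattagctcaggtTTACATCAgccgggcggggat
Chac1: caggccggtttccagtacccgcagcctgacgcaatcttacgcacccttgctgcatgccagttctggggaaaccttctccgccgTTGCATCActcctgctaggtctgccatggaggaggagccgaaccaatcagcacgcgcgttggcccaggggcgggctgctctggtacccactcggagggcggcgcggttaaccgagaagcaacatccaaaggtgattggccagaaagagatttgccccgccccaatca

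In Trib3 the match lay 21 to 14 bases before the start and in Chac1 167 to 160 bases before it, both on the strand opposite to the gene. The Ddit3 window held no match, and bases further upstream were not searched. Chac1, an enzyme that degrades glutathione, had a virus difference of -0.89 (adjusted p = 0.122), and Herpud1, a protein of endoplasmic reticulum degradation, of -0.01 (adjusted p = 0.985).

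Among markers of inhibitory neurons, of 13 measured, 6 fell (Pvalb, Slc32a1, Dlx5, Sst, Npy and Reln) and 0 rose, against 2.78% of all genes called lower. Of the 13, 7 were below untransduced in all virus groups, and 1 above. The list's median was -0.59 on average, -0.86 in nontargeting, -0.51 in knockdown and -0.09 in overexpression. Sst, the peptide somatostatin, gave 14.28 to 14.60 without virus, 12.28 to 13.45 in nontargeting, 12.66 to 13.34 in knockdown and 14.05 to 14.59 in overexpression. Sst fell by 1.10 (adjusted p = 0.0115), and Dlx5, a transcription factor of interneuron development, by 0.71 (adjusted p = 0.00537). Npy, a peptide of interneurons, fell by 0.59 (adjusted p = 0.0233), and its difference was -0.74 in overexpression (unadjusted p = 5.0e-04), -0.86 in nontargeting and -0.17 in knockdown. Gad2 and Gad1, the enzymes that make GABA, had differences of -0.80 (adjusted p = 0.0535) and -0.64 (adjusted p = 0.332), and of 0.15 and 0.00 in overexpression.

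The mean log2 intensity over the 13 inhibitory markers, each weighted equally, was 10.63 to 10.99 without virus, 10.59 to 10.82 in overexpression, 10.16 to 10.37 in knockdown and 9.80 to 10.06 in nontargeting. In these bulk samples fewer inhibitory cells and less of these RNAs per cell cannot be told apart. The number that fell was 2 without the second untransduced array, and 1 when nontargeting was left out of the average. Medians below 0 were also found for markers of the oligodendrocyte lineage (-0.24, and -0.36 in nontargeting) and of fibroblasts (-0.23, and -0.43 in nontargeting). Astrocyte markers had a median of -0.06 on average and -0.33 in nontargeting, where 4 of 18 were called lower. The part of these cell types in the fall of the inhibitory markers was not tested. Excitatory markers had a median of 0.13 over 14 members. Pan-neuronal markers had 1 of 14 called, Dcx (a difference of -0.71, adjusted p = 0.0214), with a median of -0.12.

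**Figure D4:**
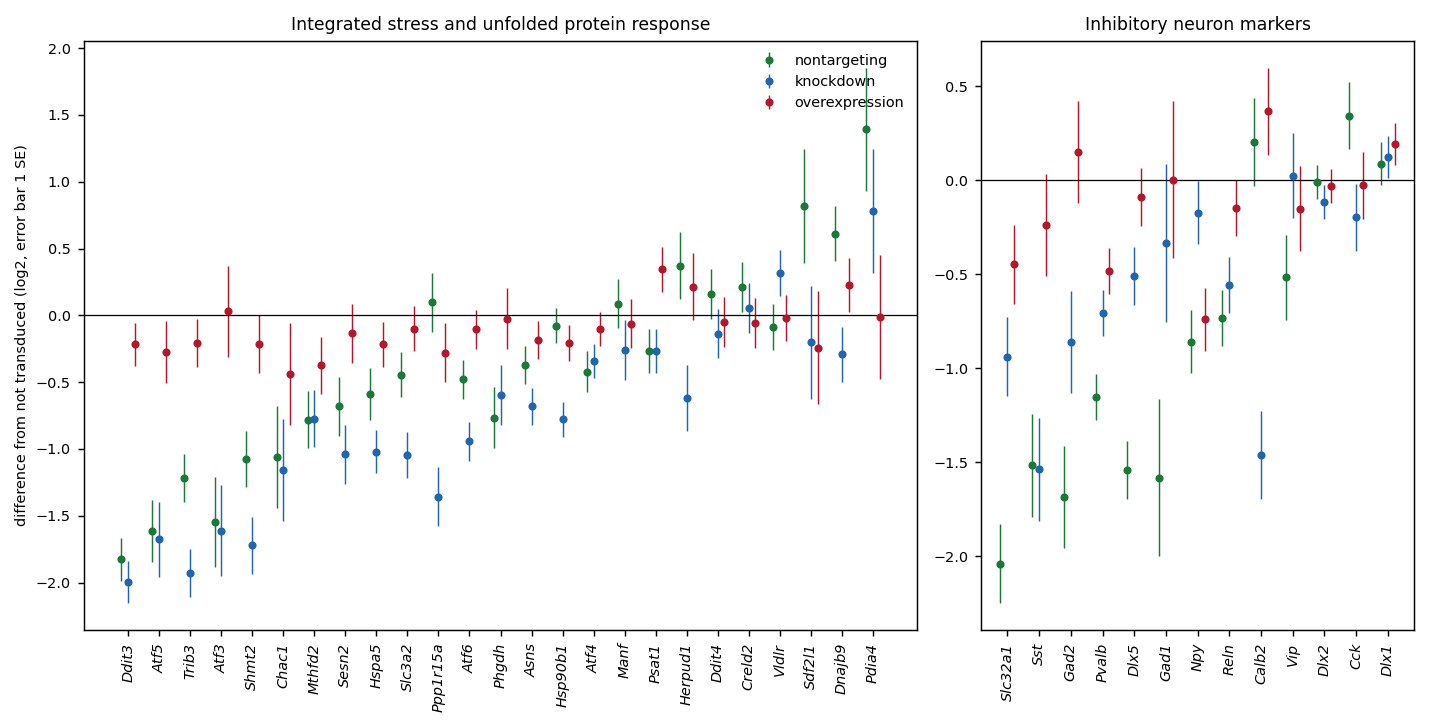
Difference from the untransduced group (log2) with 1 SE for each measured member of the stress response list (left, 25 genes) and of the inhibitory neuron markers (right, 13 genes), in nontargeting, knockdown and overexpression. Most stress response members are furthest below 0 in knockdown, and overexpression lies nearest to 0 for most members of both lists.

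Of 42 interferon-stimulated genes listed, 27 were measured, and 14 of these were well above background in every untransduced sample. On the virus average 0 of the 27 were called, with a median of 0.09, against 4.76% of all genes. In all virus groups 7 lay above untransduced and 2 below, against 20.8% and 19.5% of all genes. In overexpression 23 of 27 lay above the untransduced mean, as did 47.1% of all genes. Their median there was 0.11, and 0 passed an unadjusted p of 0.05, where 3.89% of all genes did. The member with the smallest p was Ifitm3, an antiviral membrane protein, with a difference of 0.33 (adjusted p = 0.228), made of 0.61 in knockdown, 0.02 in nontargeting and 0.35 in overexpression. In single groups 2 of 27, Ifitm3 (adjusted p = 0.0404) and Cxcl10, were called higher in knockdown, against 4.87% of all genes. In nontargeting Lgals3bp was higher (0.75, adjusted p = 0.0014), and Rsad2 (-0.62, adjusted p = 0.0257) and Stat2 (-0.37, adjusted p = 0.0273) were lower. Of all genes 11.5% were called higher there and 11% lower. Cxcl10, an interferon-induced chemokine, was well above background in 0 of 4 untransduced, 0 of 4 nontargeting, 4 of 4 knockdown and 1 of 4 overexpression samples. The filter asked for 4 such samples, so Cxcl10 was tested only because of the group where it is high. Its call in knockdown therefore supports nothing. Of 13 genes of nucleic acid sensing 0 were called on the virus average (median -0.08), and of 16 of antigen presentation 1 was called lower (adjusted p = 0.00645). This was the class I gene RT1-CE5, whose mean lay below untransduced in knockdown and nontargeting but 0.09 above it in overexpression. Leaving out single samples or arrays gave 0 or 1 called interferon-stimulated gene. The precision here is set by 4 samples a group on 2 arrays, and a p that misses the threshold does not show that levels were equal.

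Host factors of lentiviral infection had 3 of 20 members called, 1 higher and 2 lower, against 4.76% of all genes. Ranbp2, a nucleoporin that binds the incoming capsid, gave 11.93, 12.35, 12.19 and 12.30 without virus, 13.04 and 13.001 in the nontargeting samples measured, 12.88, 12.96, 12.84 and 12.98 in knockdown, and 12.75, 12.56, 12.78 and 12.78 in overexpression. No virus value reached down to the untransduced ones. Ranbp2 rose by 0.69 (adjusted p = 0.00824), with 0.52 in overexpression (unadjusted p = 0.00357). Vps4a and Vps4b, ATPases that cells and retroviruses use to pinch off membranes, fell by 0.66 (adjusted p = 0.00216) and 0.45 (adjusted p = 0.0331). Vps4a lay lowest in knockdown, at 10.84 to 10.97 against 12.28 to 12.47 without virus. Vps4b was not on a single side, since its overexpression difference was 0.04.

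The machinery that processes and loads small RNAs is used by an shRNA vector and not by the overexpression vector. It had 3 of 11 members called, 2 higher and 1 lower, against 4.76% of all genes. Without untransduced replicate 3, 0 were called in either direction. Ran, the GTPase that moves precursor hairpins out of the nucleus with exportin 5, rose by 0.50 (adjusted p = 0.0277), with differences of 0.75 in nontargeting, 0.44 in knockdown and 0.31 in overexpression. Ddx17, an RNA helicase of the nuclear processing step, rose by 0.49 (adjusted p = 0.05 after rounding, just below the threshold). Tarbp2, a partner of Dicer, fell by 0.44 (adjusted p = 0.0411), and its difference was -0.73 in nontargeting, -0.60 in knockdown and 0.02 in overexpression. Tarbp2 gave 11.57 to 11.73 without virus and 11.58 to 11.77 in overexpression, which overlapped.

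Of 28 activity-regulated genes measured, 9 rose and 2 fell on the virus average (4.76% of all genes in either direction), and the 3 virus means lay on the same side for 3 of the 9 and both of the 2. The list's median was 0.95 in nontargeting, -0.06 in knockdown and -0.14 in overexpression. With nontargeting left out of the average, 1 member rose and 2 fell, and the list's median was -0.04. With knockdown left out 13 rose and 0 fell, and with overexpression left out 15 rose and 3 fell. Leaving out single samples or arrays gave 2 to 9 rises. Dusp5, a nuclear phosphatase of ERK, rose by 1.00 (adjusted p = 5.3e-04) and gave 9.80 to 10.05 without virus, 11.57 to 11.83 in nontargeting, 10.78 to 11.21 in knockdown and 9.86 to 10.13 in overexpression, the last overlapping the untransduced samples. Dusp6, the related cytoplasmic phosphatase, rose by 0.75 (adjusted p = 0.00305), with 0.03 in overexpression. Arc, an immediate early gene of synapses, had differences of 1.37 in nontargeting, 0.46 in knockdown and -0.45 in overexpression (unadjusted p = 4.7e-04 for the last). Nr4a1, an immediate early nuclear receptor, had differences of 2.93 in nontargeting, 0.40 in knockdown and -0.41 in overexpression.

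The remaining lists stand beside 1.99% of all genes called higher and 2.78% called lower on the virus average. Of 30 lists, 3 had 5 or more members called lower, and the lysosome and autophagy list was 1 of them. Lysosome and autophagy genes had 5 of 23 lower and 1 higher, led by Becn1, an initiator of autophagy (a difference of -0.67, adjusted p = 0.00435), with 2 of the 5 on a single side. The vacuolar proton pump had 2 of 17 lower. Of these, Atp6v0a1 lay below untransduced in all virus groups (fell by 1.01, adjusted p = 0.0108), and Atp6v0d1 fell by 2.45 in knockdown, with a difference of 0.22 in nontargeting. Proliferation genes had 3 of 27 higher, led by Mcm6 of the replicative helicase, at 2.19 in knockdown, 0.12 in nontargeting and 0.07 in overexpression. Fibroblast markers had 2 of 10 lower, Postn and Thy1, and Thy1 is also a neuronal surface protein. Reactive astrocyte markers had 1 of 20 higher (Emp1) and 1 lower (Lcn2), and inflammatory genes 1 of 17 higher (Cxcl1) and 1 lower (Lcn2). In p53 and DNA damage genes 1 of 25 was lower (Zmat3).

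For the synaptic lists the shares over all genes were again 1.99% called higher and 2.78% called lower. Vesicle and active zone genes had 2 of 26 higher, the scaffolds Rims2 (0.50, adjusted p = 0.00808) and Bsn (0.44, adjusted p = 0.0246). Both lay above untransduced in all virus groups. Glutamate receptors had 2 of 22 higher (Grin2d and Grm8) and 1 lower (Grin3a), and in nontargeting alone 9 of 22 were lower, against 11% of all genes. The postsynaptic density had 1 of 25 higher (Homer2) and 2 lower (Shank3 and Cacng3), and voltage-gated channels 2 of 25 higher (Cacna1c and Kcna4). Ribosomal proteins had 1 of 38 higher, the Rpsa described above. Astrocyte, microglial and vascular markers, GABA-A receptors, heat shock, the respiratory chain, and cholesterol synthesis with the LDL receptor family, which the usual vector envelope binds, had 0 members called.

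**Figure D5:**
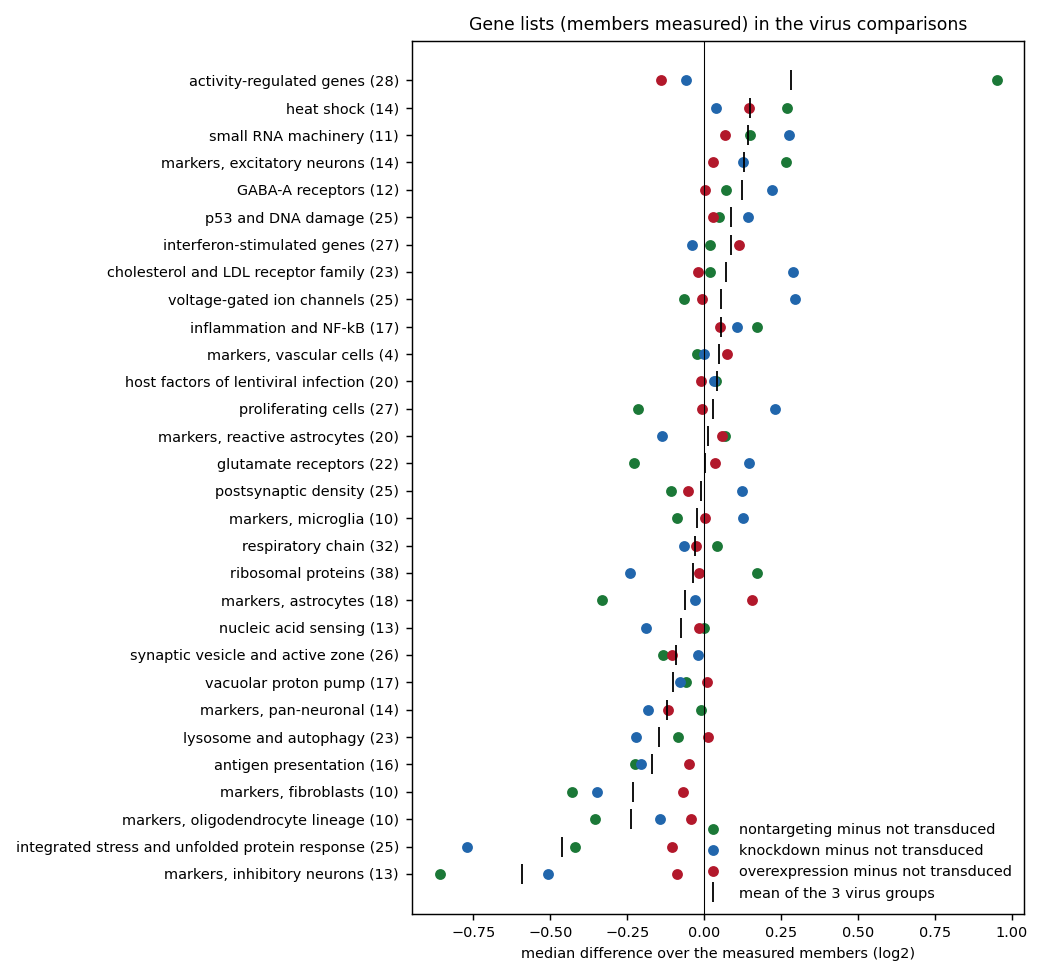
Median difference from the untransduced group (log2) over the measured members of each of 30 gene lists (number in brackets), in nontargeting, knockdown, overexpression and their average. The stress response list and the inhibitory neuron markers lie lowest on average, at -0.46 and -0.59, and the overexpression medians lie between -0.14 and 0.16 for every list.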

How the data were processed

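Transcripts of 16 rat neuron cultures were read on 8 Agilent 2-colour arrays. The intensity values are, per the file headers, mean spot signals and median local backgrounds of Agilent Feature Extraction 10.7.3.1, not normalized. The deposited series matrix holds log2 values, found by regression on the scanner output (slope and r of 1) to be background-subtracted signals centred on each column's median.

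Background was corrected by normexp (offset 50), dyes balanced by loess and arrays aligned by Aquantile normalization in limma 3.58.1 (R 4.3.3). A probe was kept if it had at least 12 values and was well above background in 4 or more samples. Of 41012 probes, 21328 were named through RefSeq accessions or symbols. The brightest probe of each gene was tested, 22909 genes from 27294 probes. The model had terms for group and dye, with arrays as random blocks (correlation 0.569). The average of the 3 virus groups, and each group, was compared with not transduced, and p-values were adjusted over all genes by Benjamini-Hochberg at 0.05. Differences are on the log2 scale, with their standard errors from the fit. The code was tested on simulated data.

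The named genes were to be those called in all 3 comparisons with no overlap of values, filled up to 10 in each direction by genes called on the average and ranked by the smallest of the 3 differences. Up to 4 members with the smallest p may be named for a list, and any others named were chosen after seeing their values. Of the genes so chosen, 1 lower gene and 2 list members are not reported here. The members and lists were chosen with earlier results of these data known. A label field that describes adult brain tissue contradicts the culture labels and was not used. Alternatives covered background, normalization, filter, probe choice, arrays as units, dye, replicate number, virus groups and leave-outs.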

Additional observations from a re-analysis of the deposited data

Results flagged for a closer look

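A total of 41 genes were checked, the named ones and the leading members of 6 lists. In 4 of 152 groups of 4 samples a sample stood apart, by a gap to its nearest neighbour, as a share of the group's range, above Dixon's critical value; chance flags about 1 in 20 such groups. These were Postn in nontargeting (0.843), Dusp6 in not transduced (0.938), Ranbp2 in overexpression (0.865) and Ran in knockdown (0.917).

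For 19 of the genes the 3 virus groups differed from not transduced by unequal amounts, by the F test among virus groups, although the selection asked for a shared direction or a small p. The largest minus the smallest of the 3 differences, on the log2 scale, was 0.80 for Tspan15, 0.90 for Fndc3c1, 0.67 for Pvalb and 1.59 for Slc32a1 among the named genes. In the stress response list it was 1.78 for Ddit3, 1.72 for Trib3, 1.40 for Atf5 and 1.51 for Shmt2. Among inhibitory markers it was 1.45 for Dlx5 and 1.30 for Sst. Among activity-regulated genes it was 3.34 for Nr4a1, 1.82 for Arc, 1.74 for Dusp5 and 1.17 for Dusp6. The remaining values were 0.98 for Lgals3bp, 0.68 for Cxcl10, 1.34 for Vps4a, 0.84 for Vps4b and 0.75 for Tarbp2. The gaps of Fndc3c1, Pvalb and Cxcl10 rest in part on samples not well above background, and Cxcl10 passed the filter only through its knockdown samples. For 17 of the 19 genes the gap lay between overexpression and a group on the other slide, where slide and virus cannot be told apart. For Lgals3bp and Cxcl10 it lay between nontargeting and knockdown, which share a slide. Within that slide nontargeting minus knockdown was also 2.53 for Nr4a1, -1.10 for Slc32a1, 1.09 for Vps4a and -1.03 for Dlx5.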

How the results depend on the processing

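The count called on the virus average was lowest with no alignment between arrays and with each array as 1 value. With no normalization between arrays 67 genes were called on the virus average, 63 called and on 1 side, 2300 in nontargeting, 0 in overexpression and 0 in all 3; the median over all genes shifted to 0.31 in knockdown and -0.21 in nontargeting, and 87% of knockdown calls but 4.74% of nontargeting calls were higher. With each array as 1 value the counts were 138, 108, 1026 in knockdown, 0 in overexpression, 0 in all 3 and 4522 among virus groups. The deposited matrix gave 4 in overexpression and 2 in all 3, with 82.4% of knockdown calls higher and medians over all genes of 0.21 in knockdown and -0.17 in overexpression. Processed signals gave 2 in overexpression, with a median of 0.14 over all genes in nontargeting, and the mean over probes gave 0 in overexpression and 0 in all 3. The 2 groups on the overexpression slide fitted alone gave 0. A 1.5-fold minimum left 474 on the average, 1481 in knockdown and 3097 in nontargeting. With no filter 15442 genes lay on 1 side.

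Leaving nontargeting out of the average gave 208 calls, 169 of them on 1 side. Leaving overexpression out gave 3533, with 3276 called and on 1 side, 914 called in both remaining comparisons and 14993 on 1 side. Leaving out samples or arrays gave 545 to 2035 on the average (lowest without the second untransduced array, highest without the first nontargeting array), 433 to 1464 called and on 1 side, 1024 to 3572 in knockdown, 3700 to 5735 in nontargeting, 0 to 41 in overexpression, 0 to 29 in all 3, 8511 to 10562 on 1 side and 5147 to 8302 among virus groups. The causes were not tested. The counts called and on 1 side, and the overexpression value of Eftud2, were followed after the data had been seen.

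Over 770 alternative values of the 20 genes chosen by the naming rule, 646 kept direction and call, 124 lost the call and 0 reversed. Eftud2 on the average kept its call throughout. With no normalization between arrays only Eftud2 and Slc32a1 of these genes kept the call. With each array as 1 value the call was lost for Ralgdsl1, Gnl3, Gpank1, Rpsa, Tspan15, Numa1, Slc6a21, Bach1, Postn, Cort, Hspa9, Inpp5d and Slc32a1. In overexpression alone Eftud2 was called in 31 of 38 alternatives. Same-numbered samples shared the dye and the order of arrays, and no source pairs them. Their deviations from group means correlated at -0.18 to 0.33 with those of the untransduced samples (0.17 to 0.27 in knockdown), and at -0.30 to 0.21 with the dye removed. With the replicate block in place of the dye, 1512 genes were called on the average, 1132 of them on 1 side, 2924 in knockdown, 6080 in nontargeting and 1 in overexpression. Array signal limits Pvalb, Bach1, Slc6a21, Fndc3c1, Hspa9 and Cxcl10, which were not well above background in some samples.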
